A study of Homo sapiens with 6 samples.

Results

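Heat shock proteins and their partner chaperones were followed as a module of 76 genes in U2OS cells, an established human osteosarcoma line. Members were the genes whose symbols in the deposited tables name an HSP, a DNAJA, DNAJB or DNAJC protein, a subunit of the cytosolic chaperonin TRiC (TCP1 and CCT2 to CCT8) or a BAG protein, and that were listed at all 3 times. They are 76 of the 11886 genes listed at all 3 times, and 78 genes of 13161 met the symbol rule at any time. The rule works on names alone. It therefore also takes in 6 HSP90 pseudogenes, the basement membrane proteoglycan HSPG2, and HSPB11, a subunit of the machinery that carries cargo along cilia. HSPA1A and HSPA1B, the main stress-inducible HSP70 genes, were not analysed here.

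Chaperones hold and fold unstable proteins. HSP70 proteins bind short hydrophobic stretches of an unfolded chain and release them in a cycle driven by ATP, J-domain proteins (DNAJA, DNAJB and DNAJC) bring them their clients and speed ATP cleavage, and BAG proteins make them let go of nucleotide and client. HSP90 proteins take over clients such as kinases and steroid receptors at a late stage, TRiC folds actin and tubulin inside a closed ring, and small HSPs hold misfolded proteins in a state from which they can be refolded. Each compartment has its own set, with HSPA5, HSP90B1 and several J proteins in the endoplasmic reticulum and HSPA9, HSPD1 and HSPE1 in mitochondria. Heat shock factor HSF1 raises many of the cytosolic genes when unfolded protein builds up, and the unfolded protein response raises those of the endoplasmic reticulum.

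All cells were U2OS and all had been held for 24 h in 4 mM hydroxyurea, which depletes deoxynucleotides and stops cells at the start of S phase, before they were washed into complete medium. They had been transfected with siRNA against E2F7 (siE2F7), an atypical E2F factor that represses E2F target genes, or with a non-target control siRNA (siNT). RNA was taken at 0, 3 and 12 h after release, described in the series as G1/S, S phase and the boundary of G2 and M. Each arm had 1 library at each time, 6 in all, and no group without hydroxyurea is among them.

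Values are FPKM, fragments scaled by transcript length and by the mapped fragments of the library, so levels of different genes can be set side by side on a per-length scale. FPKM summed to between 351305 and 375954 per library, and the number of reads behind them is unknown. E2F7 was lower in siE2F7 at every time, with a mean log2 change of -1.37 ± 0.10 (SE, n = 3 times; limma, adjusted p = 0.00102). Of 9 osteoblast lineage markers, 5 were listed at all times, whereas COL1A2, BGLAP, SP7 and IBSP were not among the listed genes. The 5 summed to between 784 and 928 FPKM in siNT and between 677 and 834 in siE2F7. COL1A1 and SPARC made up nearly all of this sum, while RUNX2, SPP1 and ALPL were at 2.83 to 12.4 FPKM in the 6 libraries. Of 5 epithelial markers, 3 were listed at all times, EPCAM, KRT8 and KRT18. They summed to between 238 and 299 FPKM in siNT and between 199 and 221 in siE2F7, groups that did not overlap, and the part of this in the results was not tested. KRT8 and KRT18 made up nearly all of the sum. EPCAM was lower in siE2F7 at 0 and 3 h but higher at 12 h (2.33 FPKM in siNT and 3.27 in siE2F7). LAPTM5 was the sole blood marker of 5 listed, at 0.937 to 2.47 FPKM, and none of 3 endothelial markers was listed.

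The module was well expressed. The median of the members' mean levels was 23.8 FPKM, against 11.2 for all genes tested, and 53 of the 76 members were at 10 FPKM or more in every library. HSP90AB1, the constitutive cytosolic HSP90, was the most abundant, at up to 1028 FPKM, and DNAJC27 reached the lowest value, 1.43 FPKM. No member was listed at 0 in any library. The members' summed level was between 1.70% and 1.85% of all FPKM in each of the 6 libraries, and the lowest share was that of siE2F7 at 12 h.

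A small number of chaperone genes differed in siE2F7 from siNT, in both directions. DNAJC9, a J protein that is also a chaperone of histones H3 and H4, rose, as did HSP90AA1, the stress-inducible cytosolic HSP90, and HSP90AA6P, a pseudogene of it. BAG3, DNAJA1, TCP1, DNAJB2 and DNAJC10 fell. The other 68 members did not pass the test (limma over all 11886 genes, adjusted p under 0.05). Of the members, 3 were higher, where 6.76% of all genes tested were, and 5 were lower, where 7.13% of all genes were. In all 10.5% of members passed, which is less than those 2 background shares together. In RNA from whole cultures, a lower level per cell and fewer cells that express a gene cannot be told apart.

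The sizes were modest. The members' median log2 change was -0.06, against -0.03 over all genes, and 74 of the 76 lay within 1.5-fold of no change (97.4%, against 94.0% of all genes). The members were more abundant than all genes at the median, and these shares were not matched for level. The 3 single-time ratios had the same sign for 46.1% of members and for 51.4% of all genes. At an unadjusted p under 0.05 (limma), 6 members were higher and 12 lower. These 18 of 76 members are a smaller share than the 3592 of all 11886 genes. The calls of DNAJC9, BAG3 and DNAJA1 held when any 1 time was left out (limma, adjusted p up to 0.0333). With time left out of the model no member passed (limma, 3 higher and 6 lower at an unadjusted p under 0.05), and 32 genes in all did. All genes were not counted at that unadjusted cut-off without the time block. Of the 76 members, 14 lie at a locus shared with another entry of the tables, TCP1 among the 8 that changed, where the counting could divide reads between the entries.

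**Figure D1:**
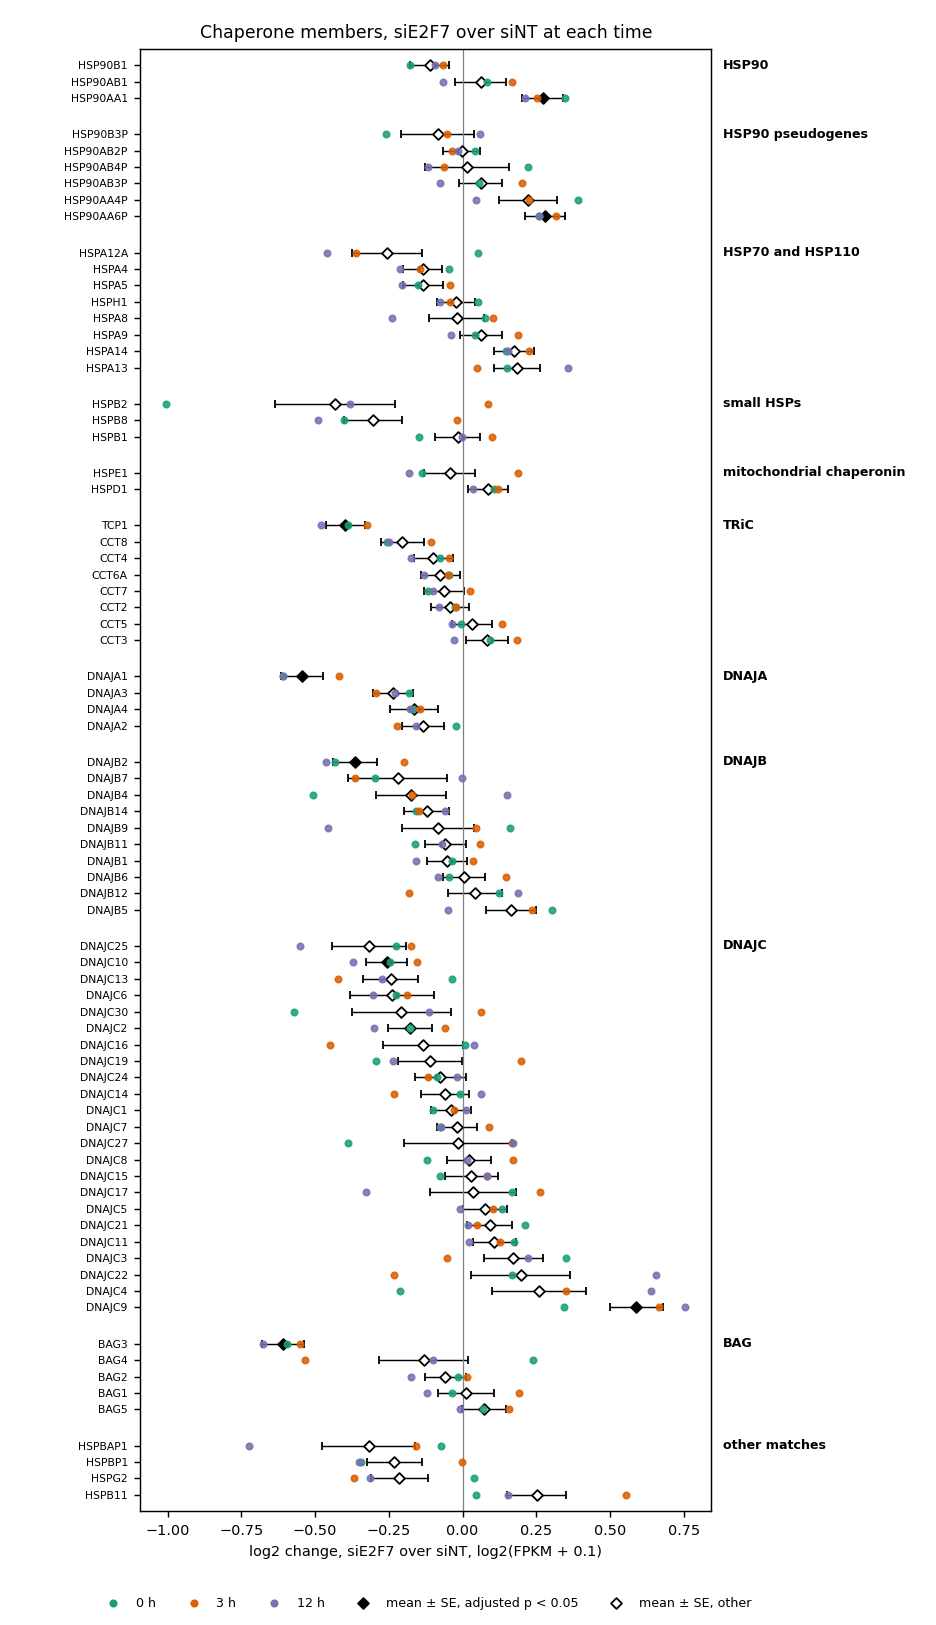
Log2 change of each of the 76 members, siE2F7 over siNT, on the log2(FPKM + 0.1) scale (x axis), by family (y axis). Coloured points are single times (1 library against 1), and diamonds are means over the 3 times with their SE, filled where the adjusted p is under 0.05. DNAJC9 stands furthest to the right at 0.59 and BAG3 furthest to the left at -0.61.

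DNAJC9 (hg19, chromosome 10, 75002582 to 75007025) had the highest rise of the module. Its levels were 93.8, 87.7 and 80.8 FPKM in siNT at 0, 3 and 12 h, and 119, 139 and 137 FPKM in siE2F7. Every siE2F7 library was above every siNT library. The log2 ratios were 0.34, 0.67 and 0.76 at the 3 times, and their mean was 0.59 ± 0.09 (SE, n = 3 times; limma, adjusted p = 0.00712), a rise of 50.4%. DNAJC9 was also the most abundant DNAJC member.

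BAG3, an HSP70 co-chaperone that steers damaged clients into autophagy together with HSPB8, had the largest fall. It lies on hg19 chromosome 10, 121410882 to 121437329. Its levels were 18.3, 20.8 and 25.1 FPKM in siNT and 12.1, 14.2 and 15.6 FPKM in siE2F7 at 0, 3 and 12 h. All siE2F7 libraries were below all siNT libraries, and the level was higher at 12 h than at 0 h in both arms. The mean log2 change was -0.61 ± 0.07 (SE, n = 3 times; limma, adjusted p = 0.00326). Its 3 ratios lay close together, within 0.13 on the log2 scale.

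DNAJA1, the main cytosolic partner of HSP70 in the DNAJA class, fell nearly as far. It lies on hg19 chromosome 9, 33025209 to 33039062. FPKM values were 233, 236 and 230 in siNT and 153, 177 and 151 in siE2F7. The 2 groups were clearly apart, and the gap was narrowest at 3 h. The mean log2 change was -0.54 ± 0.07 (SE, n = 3 times; limma, adjusted p = 0.00418). DNAJA1 made up most of the summed level of the 4 DNAJA genes. That sum in siE2F7 was 0.717, 0.770 and 0.708 of the sum in siNT at 0, 3 and 12 h, the lowest ratio of any of the families at each time.

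TCP1, the alpha subunit of TRiC, also fell. It lies on hg19 chromosome 6, 160181291 to 160210735. Its levels were 180.3, 161 and 155 FPKM in siNT and 138, 128 and 111 FPKM in siE2F7 at 0, 3 and 12 h, with no overlap between the arms. The mean log2 change was -0.40 ± 0.07 (SE, n = 3 times; limma, adjusted p = 0.00981), and the call ended without the libraries of 12 h (adjusted p = 0.0566). The entry shares its locus with ACAT2, a thiolase of lipid metabolism, and with 2 small nucleolar RNA entries, and ACAT2 had a log2 change of -0.05 (adjusted p = 0.713).

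DNAJB2, a J protein that carries ubiquitin-binding motifs and is best known from neurons, was at 58.4, 69.6 and 68.9 FPKM in siNT and at 43.3, 60.6 and 49.96 FPKM in siE2F7 at 0, 3 and 12 h. It lies on hg19 chromosome 2, 220144040 to 220151622. It was lower in siE2F7 at each time, but the arms overlapped, since siE2F7 at 3 h was above siNT at 0 h. The mean log2 change was -0.37 ± 0.07 (SE, n = 3 times; limma, adjusted p = 0.0206). The call ended without the libraries of 0 h (adjusted p = 0.0800) or of 12 h (adjusted p = 0.0703).

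DNAJC10 helps to break wrong disulfide bonds in the endoplasmic reticulum. It lies on hg19 chromosome 2, 183580999 to 183643255. Levels ran at 69.9, 64.2 and 62.5 FPKM in siNT and at 59.0, 57.6 and 48.3 FPKM in siE2F7, without overlap. Its fall was the smallest, -0.26 ± 0.07 (SE, n = 3 times; limma, adjusted p = 0.0493), and the call ended under 8 of 12 other settings, among them without the libraries of 0 h (adjusted p = 0.126), 3 h (adjusted p = 0.0768) or 12 h (adjusted p = 0.225).

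HSP90AA1 lies on hg19 chromosome 14, 102547075 to 102606086. It was at 288, 282 and 275 FPKM in siNT and at 366, 336 and 318 FPKM in siE2F7 at 0, 3 and 12 h. The arms did not overlap, and the gap was widest at 0 h. The mean log2 change was 0.27 ± 0.07 (SE, n = 3 times; limma, adjusted p = 0.0424), and the call ended without the libraries of 0 h (adjusted p = 0.218) or 12 h (adjusted p = 0.166).

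HSP90AA6P, on hg19 chromosome 4, 171502621 to 171526135, followed HSP90AA1. It was at 19.8, 19.4 and 18.6 FPKM in siNT and at 23.7, 24.2 and 22.2 FPKM in siE2F7, with a mean log2 change of 0.28 ± 0.07 (SE, n = 3 times; limma, adjusted p = 0.0353). Its level was between 6.49% and 7.19% of that of HSP90AA1 in all 6 libraries. A processed copy can take reads from its near-identical parent gene, so the 2 entries are not independent and the value of the pseudogene is uncertain. Its call ended when the libraries of any 1 time were left out (adjusted p from 0.0793 to 0.151).

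**Figure D2:**
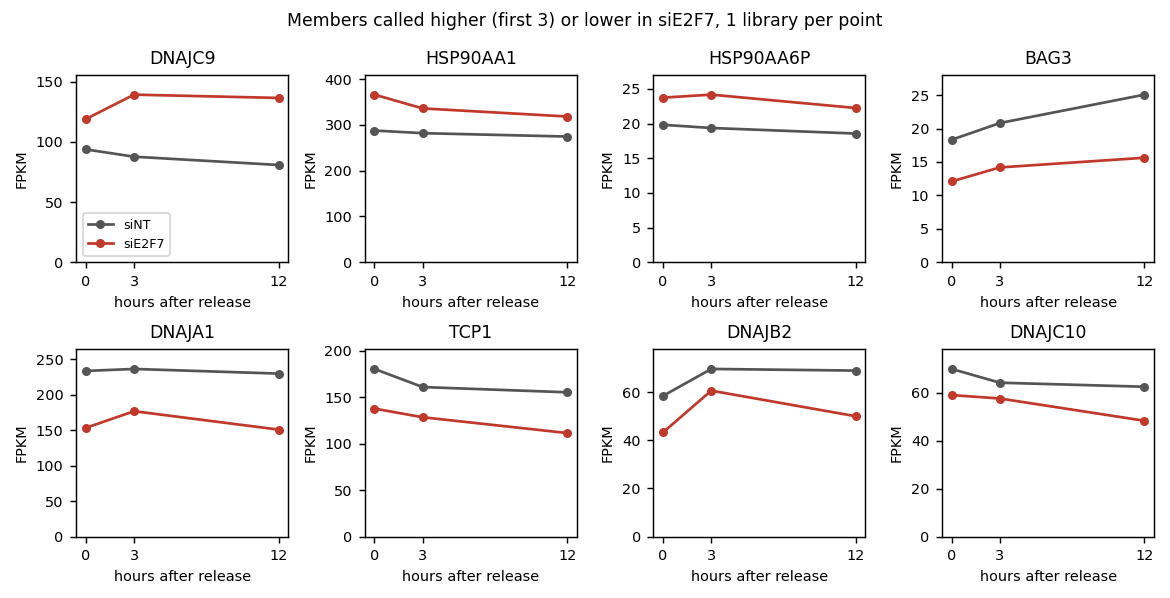
FPKM (y axis, from 0) of the 8 members that passed the test, by hours after release (x axis). Each point is 1 library, grey for siNT and red for siE2F7, and lines join the libraries of an arm. DNAJC9 went from 93.8 to 80.8 FPKM in siNT and from 119 to 137 in siE2F7, and BAG3 lay lower in siE2F7 at every time.

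Counting groups that did not overlap gave 3 members with all siE2F7 libraries above all siNT libraries, DNAJC9, HSP90AA1 and HSP90AA6P, where 6.88% of all genes did so. Below were 8 members, where 8.76% of all genes were: BAG3, DNAJA1, TCP1 and DNAJC10, and in addition CCT2, CCT8, DNAJC24 and DNAJC25, which did not pass the test.

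Promoter sequences are shown for members whose level changed and whose promoter holds a match to a site for E2F factors or heat shock factors, and for HSPA5 as the classic carrier of an endoplasmic reticulum stress site. RefSeq promoters (GRCh38.p14, from 250 bases before to 50 after the annotated start) were found for 62 of the 76 members. Capitals mark the matches. They are an E2F site in DNAJC9, 2 heat shock elements in DNAJA1, a heat shock element followed by an E2F site in TCP1, and an endoplasmic reticulum stress response element in HSPA5. The windows are chr10:73247206-73247505 on the minus strand for DNAJC9, chr9:33025023-33025322 on the plus strand for DNAJA1, chr6:159789553-159789852 on the minus strand for TCP1 and chr9:125241294-125241593 on the minus strand for HSPA5.
DNAJC9: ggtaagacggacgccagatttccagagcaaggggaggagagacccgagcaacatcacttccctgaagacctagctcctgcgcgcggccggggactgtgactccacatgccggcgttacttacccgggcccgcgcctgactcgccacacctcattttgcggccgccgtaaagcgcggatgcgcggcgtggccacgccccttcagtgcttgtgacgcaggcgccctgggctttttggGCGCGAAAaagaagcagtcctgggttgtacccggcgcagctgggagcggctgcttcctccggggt
DNAJA1: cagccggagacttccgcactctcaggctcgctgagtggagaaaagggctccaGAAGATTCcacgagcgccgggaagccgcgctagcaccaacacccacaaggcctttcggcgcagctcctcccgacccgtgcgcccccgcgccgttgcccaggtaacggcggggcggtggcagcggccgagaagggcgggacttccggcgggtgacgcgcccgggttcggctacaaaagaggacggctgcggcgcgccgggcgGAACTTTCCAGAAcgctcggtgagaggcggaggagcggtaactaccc
TCP1: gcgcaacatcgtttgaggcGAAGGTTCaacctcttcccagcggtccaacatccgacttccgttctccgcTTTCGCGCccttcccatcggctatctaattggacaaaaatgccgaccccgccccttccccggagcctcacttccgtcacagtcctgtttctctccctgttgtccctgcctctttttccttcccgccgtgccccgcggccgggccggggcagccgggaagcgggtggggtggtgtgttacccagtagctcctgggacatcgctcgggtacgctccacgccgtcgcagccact
HSPA5: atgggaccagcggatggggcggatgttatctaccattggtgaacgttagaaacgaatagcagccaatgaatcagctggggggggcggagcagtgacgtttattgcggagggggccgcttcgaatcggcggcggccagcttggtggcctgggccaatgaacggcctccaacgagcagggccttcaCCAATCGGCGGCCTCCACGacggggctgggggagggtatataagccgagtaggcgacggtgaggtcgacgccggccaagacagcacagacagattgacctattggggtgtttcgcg

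The E2F site was searched as TTTGGCGC, TTTCCCGC, TTTCGCGC and TTTGCCGC on both strands. In DNAJC9 the match begins 15 bases before the annotated start, and in TCP1 181 bases before it. Such a match was in 3 of the 62 member promoters (4.84%; HSPBAP1 is the other one), in 5.53% of the 8266 promoters of tested genes and in 3.33% of all 27305 promoters of the table. Of these 3 members DNAJC9 rose, TCP1 fell and HSPBAP1 did not pass the test.

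The heat shock element was searched as GAANNTTC, of 2 units, and as GAANNTTCNNGAA or TTCNNGAANNTTC, of 3 units, which contain the shorter form. The 2-unit form was in 8 of 62 member promoters (12.9%), in 4.57% of the promoters of tested genes and in 6.87% of all promoters. These members are BAG2, DNAJA1, DNAJB6, DNAJB7, HSPA8, HSPB1, HSPB8 and TCP1. The 3-unit form was in DNAJA1, DNAJB6 and HSPA8 (4.84% of members, 0.327% of tested genes and 0.487% of all promoters), and in DNAJA1 it begins 3 bases after the start. Of these 8 members, DNAJA1 and TCP1 fell and the other 6 did not pass the test.

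The endoplasmic reticulum stress response element, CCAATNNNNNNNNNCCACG on either strand, was in HSPA5, where it begins 66 bases before the start, and in HSP90B1 (3.23% of members, 0.157% of tested genes and 0.0806% of all promoters). BAG3, DNAJB2, DNAJC10 and HSP90AA1 held none of these letters in this window. Only the annotated start kept for each gene was searched. HSP90AA1 spans a long locus, and any start further along it was not covered, so the lack of a match holds for this window alone. A match is a run of letters and was not tested as a site.

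Among the HSP90 genes, which finish the folding of signalling proteins, HSP90AA1 alone passed. HSP90AB1 was at 917, 916 and 899 FPKM in siNT and at 972, 1028 and 858 FPKM in siE2F7, and the order of the arms turned at 12 h (mean log2 change 0.06 ± 0.09, adjusted p = 0.676). HSP90B1, the HSP90 of the endoplasmic reticulum, had a mean log2 change of -0.11 ± 0.07 (adjusted p = 0.310). The ratio of HSP90AA1 to HSP90AB1 was 0.314, 0.308 and 0.305 in siNT and 0.377, 0.327 and 0.371 in siE2F7 at 0, 3 and 12 h. It was higher in siE2F7 at each time, and the difference of the ratios, chosen after the values were seen, was not tested. Of the 6 pseudogenes, HSP90AB3P stayed between 10.1% and 10.5% of HSP90AB1, and none but HSP90AA6P passed.

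None of the 8 HSP70 and HSP110 genes passed the test. HSPA8, the constitutive HSP70 of the cytosol, was the most abundant, at 539, 542 and 745 FPKM in siNT and 568, 583 and 631 FPKM in siE2F7 at 0, 3 and 12 h. It was slightly higher in siE2F7 at 0 and 3 h and lower at 12 h (mean log2 change -0.02 ± 0.09, adjusted p = 0.906). The highest change was that of HSPA13, an HSP70 relative of microsomes (0.19 ± 0.08, adjusted p = 0.159), and the lowest that of HSPA12A, a distant relative (-0.26 ± 0.12, adjusted p = 0.199). HSPA5, also known as BiP, HSPA9 of mitochondria, HSPA4 and HSPH1 had log2 changes from -0.13 to 0.06.

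The 3 small HSPs had mean log2 changes below 0, but HSPB1 and HSPB2 were higher in siE2F7 at 3 h, and none passed. HSPB8, the partner of BAG3, was at 39.7, 52.2 and 30.9 FPKM in siNT and 30.0, 51.6 and 21.97 FPKM in siE2F7. It was level between the arms at 3 h and lower in siE2F7 at 0 and 12 h (mean log2 change -0.30 ± 0.10, adjusted p = 0.0823), and it passed with quantile normalization and without the libraries of 3 h. HSPB1, the most abundant, had a log2 change of -0.02 ± 0.08 (adjusted p = 0.903). HSPB2, a muscle small HSP at low level here, was at 6.04 FPKM in siNT and 2.96 in siE2F7 at 0 h, but at 3.24 and 3.44 FPKM at 3 h. HSPB2 had the widest spread of single-time ratios of the module, 1.09 on the log2 scale, and its mean of -0.43 ± 0.20 did not pass (adjusted p = 0.203).

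TCP1 was the sole TRiC subunit of 8 that passed. The other 7 had log2 changes from -0.20 (CCT8) to 0.08 (CCT3), with adjusted p from 0.108 to 0.792. CCT8, the most abundant subunit, was at 462, 411 and 421 FPKM in siNT and at 387, 382 and 354 FPKM in siE2F7. Its arms did not overlap either, and it passed with quantile normalization (adjusted p = 0.0195) and without the libraries of 3 h (adjusted p = 0.0430). TRiC is built from all its subunits in equal number. The ratio of TCP1 to the mean of the others was 0.747, 0.755 and 0.690 in siNT and 0.608, 0.604 and 0.543 in siE2F7, so all siE2F7 libraries were below all siNT libraries. This ratio was chosen after the values were seen and was not tested.

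**Figure D3:**
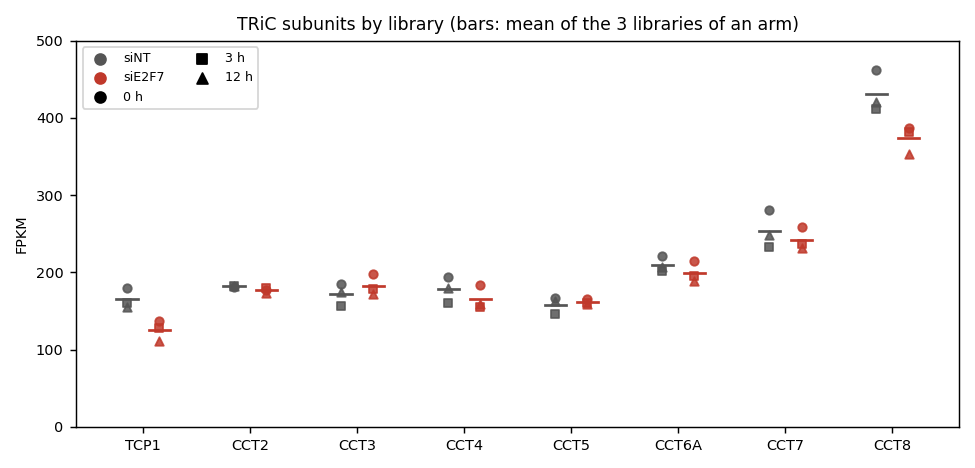
FPKM (y axis, from 0) of the 8 TRiC subunits (x axis) in the 6 libraries, grey for siNT and red for siE2F7. Circles, squares and triangles are 0, 3 and 12 h, and bars are the means of the 3 libraries of an arm. TCP1 lies at 155 to 180.3 FPKM in siNT and at 111 to 138 in siE2F7, while most other subunits overlap between the arms.

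HSPD1 and HSPE1, which form the chaperonin of the mitochondrial matrix and share 1 locus, did not pass (log2 changes of 0.09 ± 0.07 and -0.04 ± 0.09, adjusted p = 0.446 and 0.778). HSPE1 was between 0.474 and 0.612 of the level of HSPD1 in the 6 libraries.

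In the J-domain classes, the 4 DNAJA genes had log2 changes below 0 at all 3 times, and DNAJA1 alone passed. DNAJA3, a mitochondrial member, came nearest to it (-0.24 ± 0.07, adjusted p = 0.0590), and DNAJA2 had the smallest change (-0.13 ± 0.07, adjusted p = 0.251). Of the 10 DNAJB genes, 9 did not pass. DNAJB1, the stress-inducible partner of HSP70, was at 49.5, 51.2 and 73.7 FPKM in siNT and 48.3, 52.5 and 66.1 FPKM in siE2F7, with a log2 change of -0.05 ± 0.07 (adjusted p = 0.651). DNAJB5 was the highest of the class (0.16 ± 0.09, adjusted p = 0.244). DNAJB11, which serves HSPA5 in the endoplasmic reticulum, was the most abundant of the class, with a log2 change of -0.06 ± 0.07 (adjusted p = 0.621).

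Of the 23 DNAJC genes, 1 rose and 1 fell. The lowest mean was that of DNAJC25, at -0.32 ± 0.13, which did not pass (adjusted p = 0.136). DNAJC22 was at 5.75, 5.82 and 2.66 FPKM in siNT and 6.47, 4.94 and 4.25 FPKM in siE2F7, and DNAJC4 at 7.87, 4.61 and 5.34 FPKM in siNT and 6.78, 5.91 and 8.38 FPKM in siE2F7. Both changed sign between times, and so did DNAJB4 and BAG4, which with HSPB2 had the widest spread of ratios. DNAJC12 was listed at 0 and 3 h only. Its siNT levels were 1.39 and 1.38 FPKM and its siE2F7 levels 0.437 and 0.451 FPKM at those times, and the fit over those times gave -1.45 ± 0.48 (limma, adjusted p = 0.109). HSPA12B was listed at 0 h only, at 1.401 FPKM in siNT and 1.14 in siE2F7.

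Among the BAG genes, which act on the HSP70 cycle, 4 of 5 did not pass. BAG5 had a log2 change of 0.07 ± 0.07 (adjusted p = 0.559), and BAG2, the most abundant, one of -0.06 ± 0.07 (adjusted p = 0.619).

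The remaining matches to the symbol rule did not pass. HSPB11 had a log2 change of 0.25 ± 0.10 (adjusted p = 0.143), HSPBAP1, a protein that binds HSPB1, one of -0.32 ± 0.16 (adjusted p = 0.224), HSPBP1, which exchanges nucleotide on HSP70, one of -0.23 ± 0.09 (adjusted p = 0.145) and HSPG2 one of -0.21 ± 0.10 (adjusted p = 0.190).

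For each time on its own there is 1 library per arm and no replicate check, so members were counted at 1.5-fold. At 0 h no member was that much higher in siE2F7 (2.7% of all genes were) and 3 were lower (4.4% of all genes), BAG3, DNAJA1 and HSPB2. At 3 h DNAJC9 alone was higher (3.9% of all genes) and none was lower (3.9% of all genes). At 12 h DNAJC9, DNAJC4 and DNAJC22 were higher (5.07% of all genes) and BAG3, DNAJA1 and HSPBAP1 were lower (6.58% of all genes). A count of 3 is 3.95% of the module, and each of these 6 shares of members was below that of all genes, which were not matched to the members for level.

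Across the times, values are given within each arm with no test, because nothing shows that the tables of different times were scaled together. Comparisons that share a time share its libraries. A member was counted where both arms passed 1.5-fold in the same direction. Between 0 and 3 h no member was counted higher (3.05% of all genes) or lower (2.9% of all genes). From 0 to 12 h none was higher (2.89% of all genes) and DNAJC3, DNAJC22 and HSPA12A were lower (5.01% of all genes). From 3 to 12 h DNAJC30 was higher (3.4% of all genes) and DNAJB9, DNAJC3, DNAJC6 and HSPB8 were lower (4.09% of all genes).

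Among the members of the endoplasmic reticulum, HSPA5 was at 191, 210.3 and 145 FPKM in siNT and at 172, 204 and 126 FPKM in siE2F7 at 0, 3 and 12 h. DNAJC3, an HSPA5 co-chaperone that also inhibits the kinase PERK, was at 10.4, 12.4 and 5.72 FPKM in siNT and 13.3, 12.0 and 6.69 FPKM in siE2F7. DNAJB9, another HSPA5 partner and a target of the unfolded protein response, was at 11.3, 15.8 and 10.0 FPKM in siNT and 12.6, 16.4 and 7.27 FPKM in siE2F7. All 3 were lowest at 12 h in both arms. Of 13 members known from the lumen or membrane of the endoplasmic reticulum, 8 were lower at 12 h than at 3 h in both arms. The other 5, HSP90B1, DNAJB12, DNAJC14, DNAJC16 and DNAJC25, were not. Over the module, 36 of the 76 members were lower at 12 h than at 3 h in both arms. That is a larger share than the 34.8% of all genes, and the difference was not tested. This group of 13 was set up by location after the time values had been seen.

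HSPB8 was the member with the lowest log2 difference between 12 h and 3 h in siE2F7, -1.23, and had one of -0.75 in siNT. Relative to 0 h, the 5 members with the highest 12 h levels were DNAJC27, a low gene (mean log2 difference over the arms of 0.84), DNAJB12 (0.52), DNAJB1 (0.51), BAG3 (0.41) and DNAJC2, a ribosome-bound J protein (0.37). The lowest were HSPA12A (-0.94), DNAJC3 (-0.92), DNAJC22 (-0.84), DNAJC6, the auxilin that uncoats clathrin vesicles (-0.58), and HSPB1 (-0.53). HSPB1 went from 320.1 to 211 FPKM in siNT and from 289 to 211 in siE2F7 between 0 and 12 h.

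**Figure D4:**
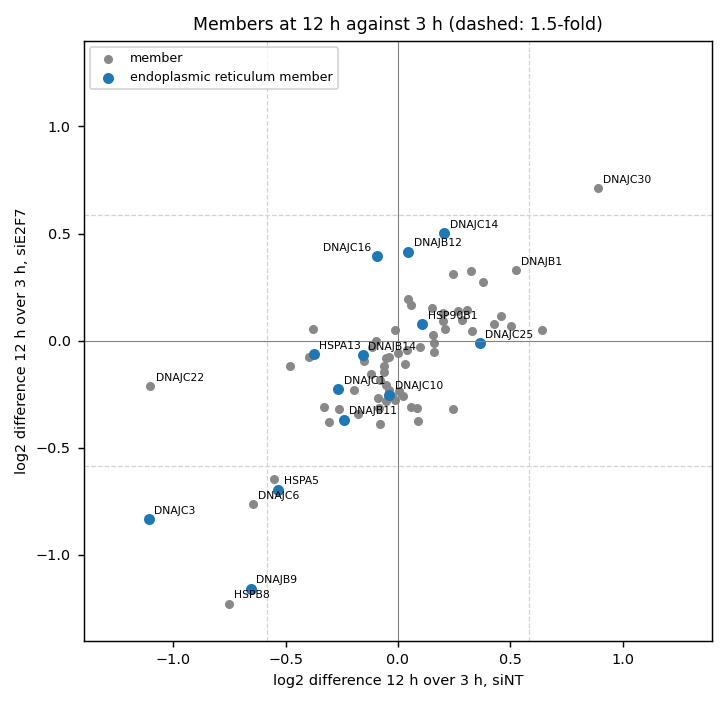
Log2 difference between 12 h and 3 h for each of the 76 members, in siNT (x axis) and siE2F7 (y axis), on the log2(FPKM + 0.1) scale, 1 library per arm and time. Blue points are the 13 members known from the lumen or membrane of the endoplasmic reticulum, and dashed lines mark 1.5-fold. Of these 13, 8 lie below 0 on both axes, with DNAJC3 and DNAJB9 beyond 1.5-fold on both.

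Other folding genes were taken from 5 lists. BAG3, which belongs to the list of stress-inducible genes, was counted with the members alone. Counts in these lists are read against the 6.76% of all genes tested that were called higher and the 7.13% called lower. The lists were chosen with earlier results of these data known, so the shares are descriptive. Of 20 cytosolic co-chaperones, 0 rose and 3 fell (15.0%): TOMM34 (-0.50 ± 0.06, adjusted p = 0.00375), which links HSP70 and HSP90 to import into mitochondria, CHORDC1 (-0.47 ± 0.09, adjusted p = 0.0175), an HSP90 partner, and STUB1 (-0.30 ± 0.08, adjusted p = 0.0488), the ubiquitin ligase of chaperone clients. The median of the list was -0.06. The call of CHORDC1 ended without the libraries of 0 h (adjusted p = 0.0519) or 3 h (adjusted p = 0.0525), and that of STUB1 when any 1 time was left out (adjusted p from 0.0811 to 0.156).

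Of 11 measured prefoldin genes and chaperonin partners, none passed by limma, and 3 had an unadjusted p under 0.05 (3592 of all 11886 genes did). They ranged from TXNDC9 (-0.20) to PDCL (0.22), and the median was 0.05.

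In the endoplasmic reticulum list 1 of 23 genes was higher (4.35%) and 3 were lower (13.0%), and the median was -0.08. UGGT1, which senses misfolded glycoproteins and sends them back to the lectin chaperones, was at 31.7, 30.5 and 24.7 FPKM in siNT and at 16.9, 12.3 and 11.0 FPKM in siE2F7. HYOU1, the HSP110-type exchange factor of HSPA5, was at 49.8, 53.5 and 45.9 FPKM in siNT and at 26.6, 28.0 and 18.2 FPKM in siE2F7. Both were lower in siE2F7 at every time without overlap of the arms, with log2 changes of -1.12 ± 0.09 (adjusted p = 0.00102) and -1.06 ± 0.10 (adjusted p = 0.00142). SERPINH1, the collagen chaperone, fell (-0.35 ± 0.08, adjusted p = 0.0322), and PDIA4, a disulfide isomerase, rose (0.44 ± 0.08, adjusted p = 0.0145). The call of SERPINH1 ended without the libraries of 0 h (adjusted p = 0.0898) or 12 h (adjusted p = 0.184), and that of PDIA4 without those of 3 h (adjusted p = 0.0773).

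Of 14 mitochondrial folding and quality control genes, 0 rose and 1 fell (7.14%, near the 7.13% of all genes), CLPX (-0.42 ± 0.07, adjusted p = 0.0112), the unfoldase of the ClpXP protease, with a list median of -0.04. Its call ended without the libraries of 3 h (adjusted p = 0.0653).

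Of 16 heat shock factors and other stress-inducible genes, 0 rose and 6 fell (37.5%, against 7.13% of all genes), with a median of -0.12. CHORDC1 and SERPINH1 are among them and stand in other lists too, and both calls ended without the libraries of 0 h. This list was put together with earlier results of these data known, so its share of falls is descriptive and was not tested. HMOX1, the heme-degrading enzyme of the oxidative stress response, was at 27.3, 15.0 and 16.2 FPKM in siNT and 15.4, 9.42 and 6.94 FPKM in siE2F7 (-0.90 ± 0.11, adjusted p = 0.00359). SQSTM1, the autophagy receptor p62 (-0.48 ± 0.07, adjusted p = 0.00516), CRYAB, a small HSP by structure (-0.56 ± 0.10, adjusted p = 0.0109), and MLKL, the executor of necroptosis (-1.67 ± 0.32, adjusted p = 0.0162), fell too. MLKL was a low gene, at 2.29, 2.14 and 3.13 FPKM in siNT and 0.683, 1.06 and 0.488 FPKM in siE2F7. HSF1 itself was at 56.3, 56.0 and 67.2 FPKM in siNT and 51.6, 53.5 and 60.0 FPKM in siE2F7, and did not pass (-0.12 ± 0.06, adjusted p = 0.255).

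**Figure D5:**
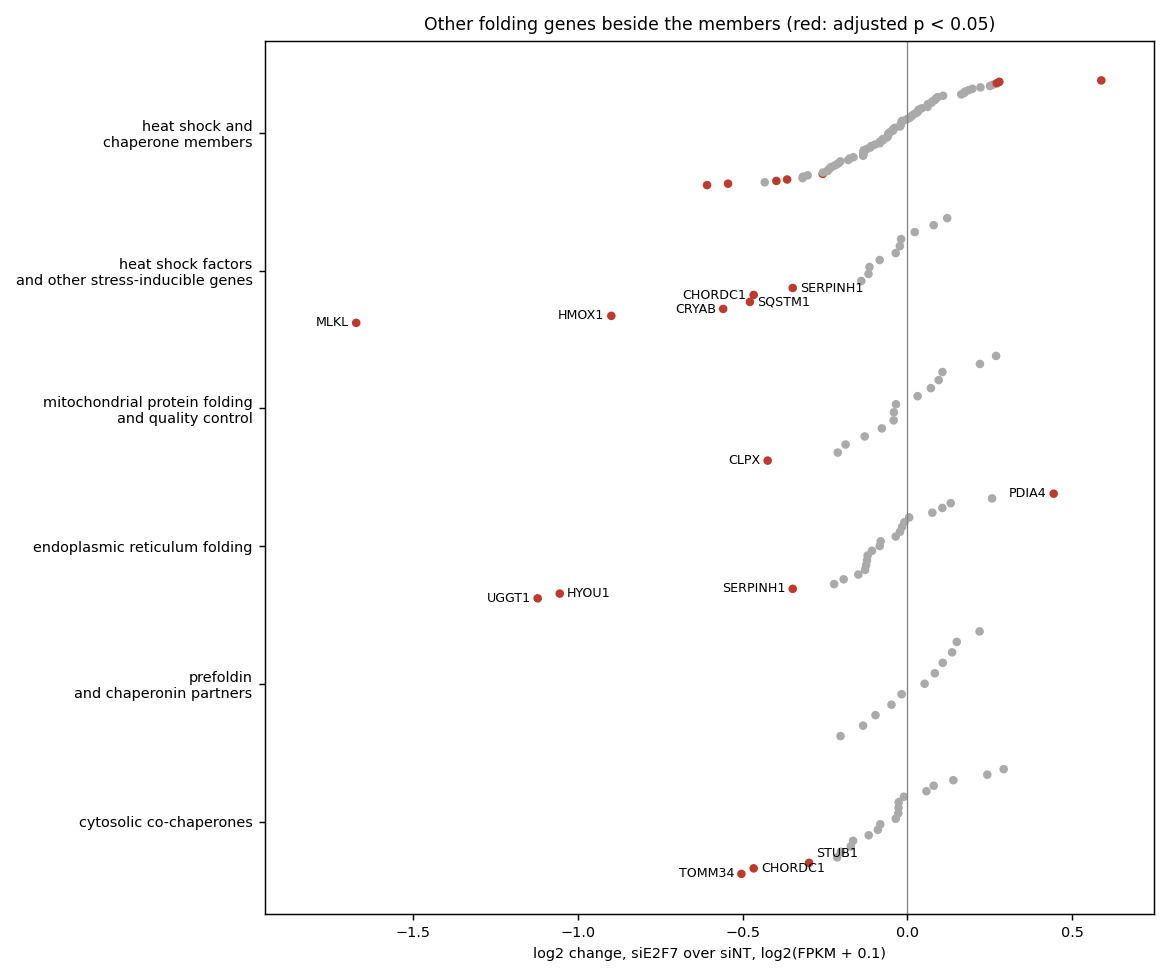
Log2 change, siE2F7 over siNT (x axis, log2(FPKM + 0.1) scale, mean of the 3 times), of the 76 members and of 5 lists of other folding genes (y axis, genes of a row ordered by value). Each point is 1 gene, red where the adjusted p is under 0.05. MLKL, a low gene, and UGGT1 and HYOU1 lie below -1, further out than any member, and PDIA4 is the sole red point above 0 in the lists.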

How the data were processed

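Gene levels are FPKM as deposited by the authors, in 1 table per library. The submitters' processing notes name CASAVA 1.8 and hg19. Which aligner, gene annotation and filters were used is not given in the sources. Tables of 1 time list the same genes, and those of different times do not, so genes were joined by symbol.

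Arms were compared on the log2(FPKM + 0.1) scale (limma 3.58.1, R 4.3.3), which understates the change of low genes. Time was a block, the variance followed a trend with level (2 residual and 5.41 prior degrees of freedom), and p-values were Benjamini-Hochberg adjusted over 11886 genes. The fit was also run on libraries simulated with independent noise, a check of the code that bears on no result here. Nothing in the labels says that libraries came from separate cultures, so p-values reflect only how these libraries vary, which may be technical. Depth is unknown and no counting error can be given.

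The members and lists were chosen with earlier results of these data known. Named genes are the members called, the extremes and the most abundant member of each family, the members with the widest ratios or time differences, and those called in each list or otherwise its extremes; further members were named after their values were seen. Pseudocount, filter, scaling, trend, block, locus sharing, fold cut-off and each time were varied.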

Additional observations from a re-analysis of the deposited data

How the results depend on the processing

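Over 12 alternatives, the members' median log2 change ranged from -0.08 to -0.03. Over the named genes and the counts, 735 values under an alternative kept direction and side of the threshold or moved little, 57 lost the call, 5 gained it (CCT8 and HSPB8 with quantile normalization and without 3 h, and DNAJA3 without genes that share a locus), 19 counts moved and 15 changed sign, and the cause was not tested. Members called were 3 higher and 5 lower. With no time block they were 0 and 0 (limma, 3 higher and 6 lower at an unadjusted p under 0.05, not counted over all genes). With no variance trend they were 1 and 3. When 1 time was left out they were 1 to 2 higher and 2 to 6 lower. In all, 4 were called without 0 h, 8 without 3 h and 3 without 12 h. Of all 11886 genes, 32 were called with no time block and 852 with no variance trend. Without 0, 3 and 12 h, 1095, 763 and 1109 genes were called. The members' share was above that of all genes without the libraries of 3 h and below it in the others. Counts at single times and between times moved too. At 2-fold in place of 1.5-fold, members higher in siE2F7 were 0 at 3 h and 0 at 12 h, members lower in siE2F7 were 1 at 0 h and 0 at 12 h, and those higher at 12 h than at 3 h, lower at 12 h than at 0 h and lower at 12 h than at 3 h were 0, 0 and 0. With a pseudocount of 1, members higher at 12 h than at 3 h were 0 and those higher in siE2F7 at 12 h were 1. With quantile normalization, 1 member was higher at 12 h than at 0 h and 0 were higher in siE2F7 at 3 h. For these fold counts under other settings, the shares of all genes were not counted. Members that changed sign had no call in either fit. With 1 time left out, log2 changes ran from -0.318 to 0.0692 for BAG4, from -0.0969 to 0.00021 for DNAJB1, from -0.0288 to 0.156 for DNAJB12, from -0.0326 to 0.412 for DNAJC22, from -0.110 to 0.170 for DNAJC27, from -0.0821 to 0.0897 for HSPA8, from -0.0753 to 0.0487 for HSPB1, from -0.160 to 0.0246 for HSPE1 and from -0.0600 to 0.0046 for HSPH1. Quantile normalization gave 0.0511 for DNAJC27 and 0.0166 for HSPA8, scaling to a common median gave 0.00091 for DNAJC27 and 0.00065 for HSPB1, and a pseudocount of 1 gave 4.7e-05 for DNAJC27. Letting in genes listed at any time covered those listed at 2 or more. The time block pairs the 2 libraries of each time, so the values with no time block are those of the unpaired fit. The labels give no replicate numbers for a further pairing.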
